A study of Mus musculus with 8 samples.

Results

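The transcripts described here are the caveolins Cav1, Cav2 and Cav3 and the cavins Ptrf (Cavin1), Sdpr (Cavin2), Prkcdbp (Cavin3) and Murc (Cavin4), taken by symbol from RNA-seq of mouse gastrocnemius. They are 7 of the 30743 genes in the table, and all 7 were among the 15073 genes with enough signal to be tested. The 4 double transgenic (DTG) mice were males with both the 1256[3Emut]Mck-rtTA and the TRE-myrAkt1 transgene, in which doxycycline turns on a constitutively active Akt1. The 4 MckrtTA mice carried 1256[3Emut]Mck-rtTA alone. Every mouse was 4 months old, was labelled strain Myo L8, drank doxycycline at 0.5 mg/ml for 2 weeks and was starved overnight before collection. The Mck-rtTA transgene is driven from a muscle creatine kinase promoter, and the Akt1 transgene is active in only a subset of muscles. The RNA came from the bilateral, whole gastrocnemius, with its vessels, nerves and connective tissue. In such bulk RNA, fewer cells of a type and less RNA per cell cannot be told apart.

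Caveolae are flask-shaped pits of the plasma membrane that buffer membrane tension and gather signalling proteins. Caveolins are hairpin proteins inserted into the inner leaflet, and cavins are soluble coiled-coil proteins that coat the pit from the cytosol. Cav1 and Cav2 are made in endothelium, adipocytes, fibroblasts and smooth muscle, whereas Cav3 is the caveolin of striated muscle and takes part in making T-tubules. Ptrf is needed for caveolae in muscle and elsewhere, Sdpr helps to bend the membrane, Prkcdbp ties caveolae to signalling and Murc belongs to striated muscle. Mutations of CAV3 and of PTRF cause muscle disease in humans.

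The values are RSEM estimates of reads per gene, scaled until the 75th percentile of each library is 1000, and are given as signal. On that scale 1 read came to 1.25 to 1.68 in DTG and 2.25 to 2.97 in MckrtTA libraries, and a member had 217 to 11697 estimated reads in a library. Akt1 reached 69301, 63102, 44224 and 37986 in DTG mice 253, 282, 283 and 306. It reached 4047 to 5054 in MckrtTA libraries. These values hold transgene and endogenous gene together. Summed signal was 60626340 to 90890101 in DTG and 131684957 to 136261848 in MckrtTA libraries, so the scaling bears on every direction: with equal totals the median of all tested genes stood at 0.67 on the log2 scale and not at -0.26, a shift of 0.93. Markers of mature fibres were present in all libraries, none of 11 at 0, at a summed signal of 5444452 to 11906693 in DTG and 21531598 to 23994046 in MckrtTA muscle. Among other cell types, 6 of 6 macrophage, 5 of 7 satellite cell and myoblast, 4 of 6 fibroblast and 4 of 4 dividing cell markers were called higher, 1 of 3 Schwann cell markers was called lower (0 with equal totals) and none of 7 adipocyte markers was called (1 lower without MckrtTA mouse 307). The satellite cell count was 3 when DTG mouse 282, 283 or 306 or MckrtTA mouse 280 or 307 was left out. Among all tested genes 14.6% were called higher and 16.0% lower. Lanes 1 and 8 each held 2 mice of either group, and DTG mouse 253, on lane 1, stood apart from the other DTG mice in several members, so values without it are given beside theirs. It stood apart in marker sums too: fibre markers summed to 11906693 in mouse 253 and 5444452 to 6876030 in the other DTG mice, satellite cell and myoblast markers to 13825 in mouse 253 and 51209 to 91603 in the other DTG mice, fibroblast markers to 130499 in mouse 253 and 404121 to 594015 in the other DTG mice and dividing cell markers to 1980 in mouse 253 and 7462 to 10670 in the other DTG mice. What these differences contribute to its caveolin and cavin values was not tested.

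Promoter sequence is shown for 4 members, Cav3 and Murc as the muscle forms and Sdpr and Cav2 as those with the lowest DTG signal relative to MckrtTA. Each line is the 250 bases before a RefSeq start in GRCm38.p6, the build of mm10, on the plus strand and 5′ to 3′, and 6 of 7 members matched an entry. Capitals mark matches, on either strand, to the E-box CANNTG, the CCAAT box, the TATA box TATAAA, the GC box GGGCGG, the Foxo motif TGTTTAC or the CArG box.
Cav3, chr6:112459255-112459504: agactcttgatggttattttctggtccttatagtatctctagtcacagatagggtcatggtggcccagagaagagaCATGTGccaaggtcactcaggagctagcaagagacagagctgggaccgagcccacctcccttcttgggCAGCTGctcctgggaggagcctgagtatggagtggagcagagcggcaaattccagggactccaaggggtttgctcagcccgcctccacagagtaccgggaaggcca
Murc, chr4:48663264-48663513: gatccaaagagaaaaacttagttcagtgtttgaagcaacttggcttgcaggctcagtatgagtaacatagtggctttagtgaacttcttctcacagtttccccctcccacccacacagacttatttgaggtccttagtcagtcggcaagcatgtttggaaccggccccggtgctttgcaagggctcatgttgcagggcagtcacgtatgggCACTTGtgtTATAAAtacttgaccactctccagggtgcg
Sdpr, chr1:51288876-51289125: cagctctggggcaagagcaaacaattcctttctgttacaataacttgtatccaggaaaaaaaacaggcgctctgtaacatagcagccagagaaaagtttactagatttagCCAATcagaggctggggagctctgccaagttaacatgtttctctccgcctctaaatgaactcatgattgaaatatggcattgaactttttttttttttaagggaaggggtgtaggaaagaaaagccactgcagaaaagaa
Cav2, chr6:17280935-17281184: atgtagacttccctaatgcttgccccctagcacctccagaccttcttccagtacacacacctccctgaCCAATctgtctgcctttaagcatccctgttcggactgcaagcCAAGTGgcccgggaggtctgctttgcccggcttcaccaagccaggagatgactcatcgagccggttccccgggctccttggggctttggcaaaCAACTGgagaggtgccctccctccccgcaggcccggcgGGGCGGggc
The Cav3 window held CATGTG at 169 to 174 and CAGCTG at 101 to 106 bases before the start. CAGCTG is 1 form of the E-box. An E-box of any kind is found in 66.2% and CAGCTG in 13.0% of 32841 mouse windows of this length. Murc had TATAAA at 25 to 30 bases before its start, as 12.4% of windows have somewhere, and an E-box beside it. The Sdpr window held CCAAT (33.9% of windows) and no E-box. Cav2 had CCAAT, 2 E-boxes and GGGCGG (32.7% of windows), and the RefSeq start used for it lies upstream of the start in the table. No member window held TGTTTAC (3.17% of windows) or a CArG box (1.47%). These are matches of letters and not binding sites.

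None of the 7 members was called with limma by the study's thresholds, an adjusted p under 0.005 together with a change of at least 2-fold, by which 14.6% of tested genes were higher and 16.0% lower. At an unadjusted p under 0.05, 5 were lower and 1 higher, beside 45.6% and 26.6% of all genes. At an adjusted p under 0.05 with no fold minimum, 5 were lower and 1 higher, beside 44.1% and 25.6% of all genes. At 0.005 with no fold minimum Cav2, Sdpr and Murc were lower and Prkcdbp higher, beside 33.0% and 18.3% of all genes. The 4 DTG values lay below all MckrtTA values for Cav2, Ptrf, Sdpr and Murc (40.4% of all genes) and above them for Prkcdbp (22.2%). On the deposited scaling most of the family was thus lower by less than 2-fold, as a large share of all genes were. At an adjusted p under 0.05 in limma, 5 members were higher and 0 lower with equal totals. With a trimmed mean of log ratios or a median of ratios, 1 was higher and 3 lower. The shares of all genes at that level under these scalings were not computed.

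**Figure D1:**
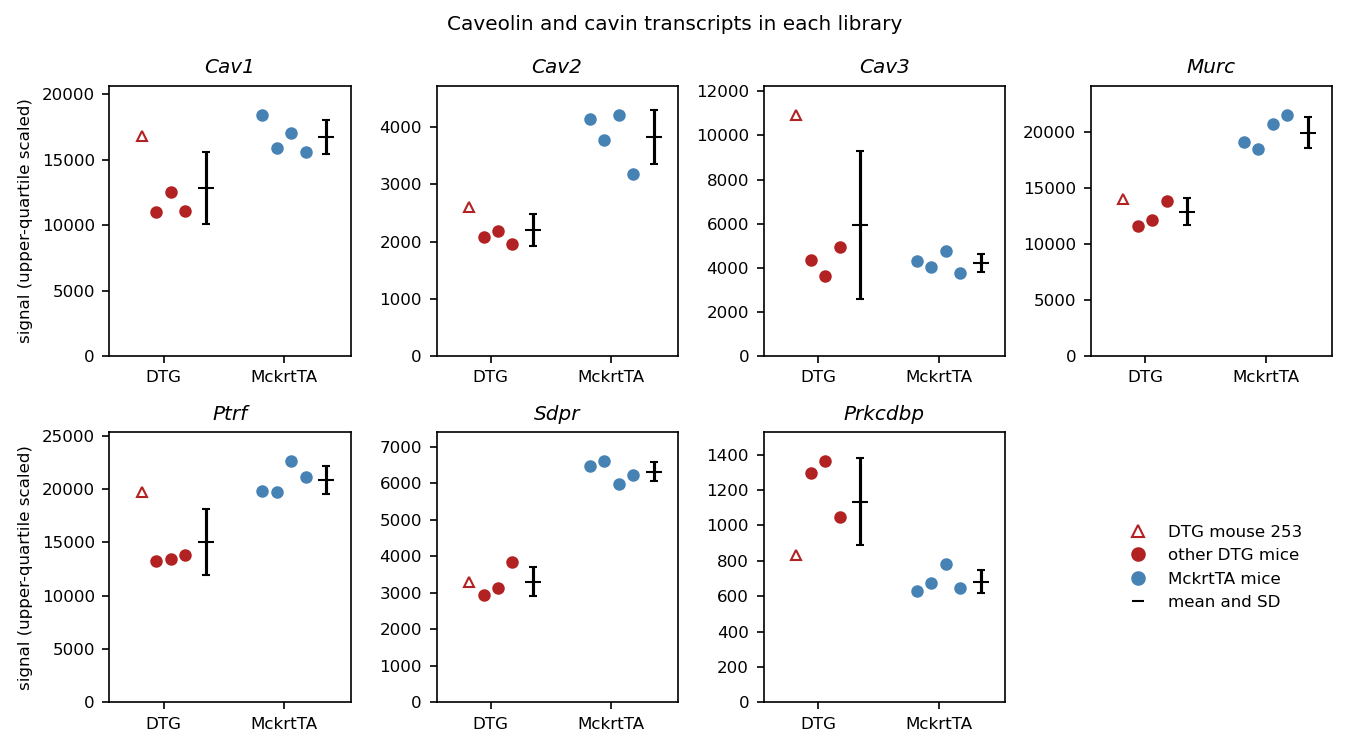
Signal of each member (vertical axes, upper-quartile scaled, from 0) in 4 DTG and 4 MckrtTA libraries, with black bars for the mean and SD of a group and an open triangle for DTG mouse 253. The DTG points of Sdpr (2948 to 3855) lie below every MckrtTA point (5986 to 6594), and mouse 253 stands alone for Cav3 at 10932.

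Cav3, the muscle caveolin (chromosome 6, 112459505 to 112472872 in mm10), had a signal of 10932, 4339, 3633 and 4920 in DTG mice 253, 282, 283 and 306, against 4310, 4025, 4754 and 3780 in MckrtTA mice 255, 280, 281 and 307. Values below follow this order of mice. Mouse 253 was 2.54 times the mean of the other DTG mice. Of these, mouse 282 lay within the control range, mouse 283 just below it and mouse 306 just above it. Over all mice the groups did not differ by the test (log2 fold change 0.36, SE 0.30, adjusted p = 0.299, 95% interval -0.31 to 1.03). The estimate was 0.021 (adjusted p = 0.869) without mouse 253, 0.48 on lane 1 and 0.24 on lane 8.

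Cav1, the caveolin that caveolae outside muscle are built on (chromosome 6, 17306335 to 17341328), had 16852, 11005, 12540 and 11059 in DTG mice, against 18428, 15871, 17034 and 15631 in MckrtTA mice. The DTG mice were below the controls except for mouse 253, which lay among them. The difference was small (log2 fold change -0.40, SE 0.14, adjusted p = 0.0317), larger without mouse 253 at -0.54 (adjusted p = 1.7e-04), and -0.29 on lane 1 and -0.51 on lane 8. With any 1 other mouse left out the adjusted p was 0.0481 to 0.0907 in limma, and in 6 of these 7 fits it missed 0.05.

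Cav2, which forms oligomers with Cav1 and is its neighbour on the chromosome (chromosome 6, 17281341 to 17289011), had 2607, 2073, 2182 and 1967 in DTG mice, against 4140, 3780, 4218 and 3181 in MckrtTA mice. All DTG mice were lower, and their mean stood at 0.576 of the MckrtTA mean (log2 fold change -0.79, SE 0.12, adjusted p = 3.8e-04). Both lanes gave about the same, -0.81 on lane 1 and -0.78 on lane 8.

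Murc, the muscle cavin (chromosome 4, 48663514 to 48673492), had 13992, 11645, 12116 and 13885 in DTG mice, against 19146, 18483, 20712 and 21558 in MckrtTA mice. Each DTG mouse, 253 among them, was below each control (log2 fold change -0.63, SE 0.10, adjusted p = 4.0e-04). The estimate was -0.67 without mouse 253, -0.61 on lane 1 and -0.65 on lane 8.

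Ptrf, the cavin that caveolae cannot form without (chromosome 11, 100956736 to 100970617), had 19698, 13208, 13390 and 13804 in DTG mice, against 19849, 19753, 22578 and 21115 in MckrtTA mice. Mouse 253 was just under the lowest control, and the other 3 DTG mice were close together and far below. With it the difference missed the 0.005 level (log2 fold change -0.49, SE 0.14, adjusted p = 0.0107), and without it the estimate was -0.63 (adjusted p = 1.6e-05). The lanes gave -0.38 on lane 1 and -0.60 on lane 8.

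Sdpr, the cavin that bends membranes (chromosome 1, 51289126 to 51302960), was the lowest of the family in relative terms. It had 3283, 2948, 3124 and 3855 in DTG mice, against 6460, 6594, 5986 and 6229 in MckrtTA mice. Mouse 253 did not stand apart here, and the DTG mean was 0.523 of the MckrtTA mean (log2 fold change -0.94, SE 0.10, adjusted p = 3.6e-05, 95% interval -1.16 to -0.72). Leaving out single mice gave -1.02 to -0.89, and without DTG mouse 306 Sdpr was called lower.

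Prkcdbp, a cavin that binds protein kinase C delta (chromosome 7, 105480616 to 105482197), was the member with the lowest signal and the one that was higher in every DTG mouse. It had 832, 1299, 1361 and 1048 in DTG mice, against 631, 676, 779 and 644 in MckrtTA mice. Mouse 253 was nearest to the controls. The mean was 1.66 times that of MckrtTA mice (log2 fold change 0.70, SE 0.16, adjusted p = 0.00388), and the estimate was 0.84 without mouse 253, 0.60 on lane 1 and 0.81 on lane 8. With any 1 other mouse left out the adjusted p was 0.00601 to 0.0141 in limma, above 0.005.

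With equal totals all 7 estimates were positive. They were 1.31 for Cav3 and 1.64 for Prkcdbp, both then called higher (adjusted p = 3.9e-04 and 5.1e-04 in limma) as 31.1% of genes were, with 1.97% called lower. The sign turned for Cav1 (0.55, adjusted p = 5.6e-04 in limma), Ptrf (0.46, adjusted p = 2.0e-04) and Murc (0.32, adjusted p = 0.0195). It also turned for Cav2 (0.15, adjusted p = 0.255) and Sdpr (0.0074, adjusted p = 0.964). With a trimmed mean of log ratios (17.6% of genes higher, 9.29% lower) or a median of ratios (18.1% higher, 8.48% lower) no member was called and no sign turned, but the negative values were smaller. Cav1 stood at -0.14 (adjusted p = 0.366) and -0.10 (adjusted p = 0.495) in limma under these scalings, and Ptrf at -0.23 (adjusted p = 0.124) and -0.20 (adjusted p = 0.183), so neither passed 0.05. Cav2, Sdpr and Murc passed 0.05 under both, at -0.50, -0.65 and -0.34 under the median of ratios, where Murc missed 0.005 (adjusted p = 0.00852). On the deposited scaling no member was called without mouse 253 (18.3% higher, 19.2% lower). A scaling moves a member and the median of all genes nearly alike by construction, so the distance from that median describes the order of the members and is no sign of stability. Over the 4 scalings Prkcdbp stood at 0.97, Cav3 at 0.62 to 0.64, Cav1 at -0.13 to -0.12, Ptrf at -0.22 to -0.21, Murc at -0.37 to -0.35, Cav2 at -0.53 to -0.51 and Sdpr at -0.68 to -0.66 on the log2 scale.

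**Figure D2:**
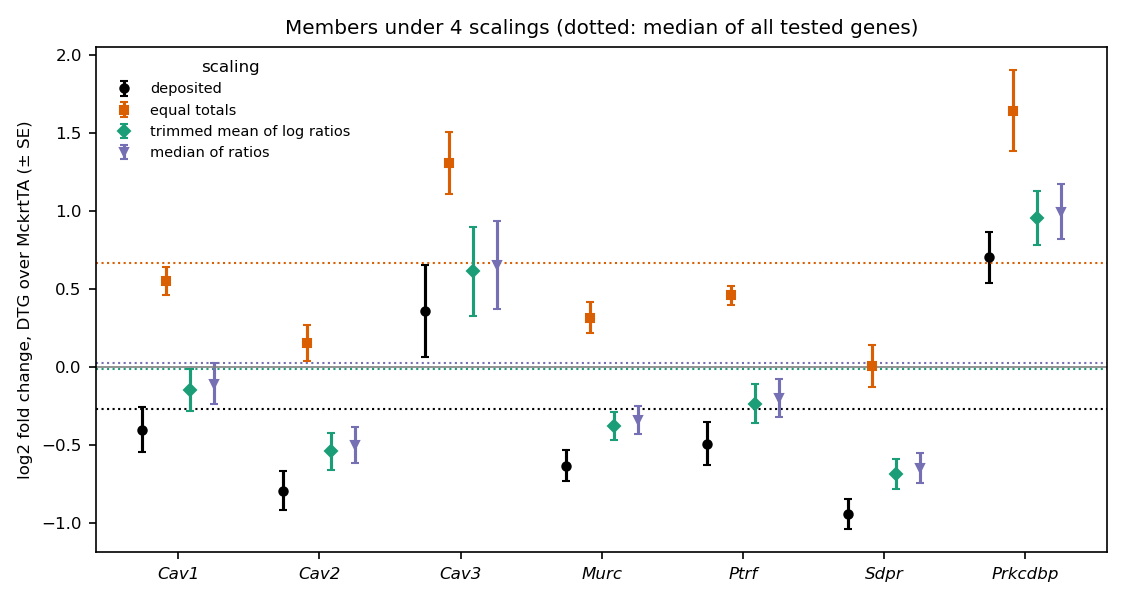
Log2 fold change of each member, DTG over MckrtTA, with its standard error (vertical axis) under 4 scalings, and dotted lines for the median of all tested genes under each. With equal totals the 5 members that were negative stand at or above 0, up to 0.55 for Cav1.

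Per kilobase of transcript, Murc had the most signal of the family in MckrtTA muscle. Its level was 6285 ± 587 in DTG and 9725 ± 686 in MckrtTA muscle (mean ± SD, n = 4 each, as for the levels that follow). MckrtTA muscle had 6097 ± 466 of Cav1 and 5965 ± 379 of Ptrf, whose ranges overlapped, then 3645 ± 361 of Cav3, 2068 ± 87.5 of Sdpr, 1401 ± 173 of Cav2 and 411 ± 40.5 of Prkcdbp, each apart from the next. In DTG muscle Cav3 (5148 ± 2903), Cav1 (4685 ± 1002) and Ptrf (4304 ± 895) overlapped with each other, and Cav1 of mouse 253 reached the range of Murc. DTG levels of Sdpr (1081 ± 129), Cav2 (808 ± 103) and Prkcdbp (683 ± 146) came last, and Cav2 and Prkcdbp overlapped there. In mouse 253 Cav3 led the family, at 9449.

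Ratios between members within a library do not move with the scaling, and 4 of the 7 ratios were apart between the groups. Of all tested genes taken singly, 22.2% had every DTG value above and 40.4% every DTG value below the MckrtTA values. The share for ratios of other gene pairs was not computed, so the 4 are not shown to be particular to this family. Cav3 over Cav1, the muscle caveolin over the other, was 0.649, 0.394, 0.290 and 0.445 in DTG mice, against 0.234, 0.254, 0.279 and 0.242 in MckrtTA mice. Every DTG ratio was higher, by 0.76 on the log2 scale and by 0.56 without mouse 253. The exact two-sided permutation p was 0.0286, the smallest that 4 against 4 libraries can give, and 0.0536 after adjustment over 15 such comparisons, which misses 0.05. All comparisons below whose groups were apart have these same 2 p-values.

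Murc over Cav3, the muscle cavin over the muscle caveolin, was 1.28, 2.68, 3.33 and 2.82 in DTG mice, against 4.44, 4.59, 4.36 and 5.70 in MckrtTA mice. Every DTG ratio was lower (log2 difference -0.99, -0.69 without mouse 253). Cav2 over Cav1 was 0.155, 0.188, 0.174 and 0.178 in DTG mice, against 0.225, 0.238, 0.248 and 0.203 in MckrtTA mice. These chromosomal neighbours did not keep 1 ratio: it was lower in all DTG mice (log2 difference -0.39, -0.52 on lane 1 and -0.26 on lane 8). Prkcdbp over Ptrf was 0.0795 ± 0.0274 (SD, n = 4) in DTG and 0.0328 ± 0.00195 (SD, n = 4) in MckrtTA mice, with all DTG mice higher (log2 difference 1.19).

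The groups overlapped in the other 3 ratios. Ptrf over Cav1, the core pair outside muscle, was 1.17 ± 0.0763 (SD, n = 4) in DTG and 1.25 ± 0.124 (SD, n = 4) in MckrtTA mice (exact permutation p = 0.343). Murc over Ptrf was 0.876 ± 0.123 (SD, n = 4) in DTG and 0.960 ± 0.0453 (SD, n = 4) in MckrtTA mice (exact permutation p = 0.257). Sdpr over Ptrf was 0.226 ± 0.0463 (SD, n = 4) in DTG and 0.305 ± 0.0313 (SD, n = 4) in MckrtTA mice (exact permutation p = 0.0571).

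**Figure D3:**
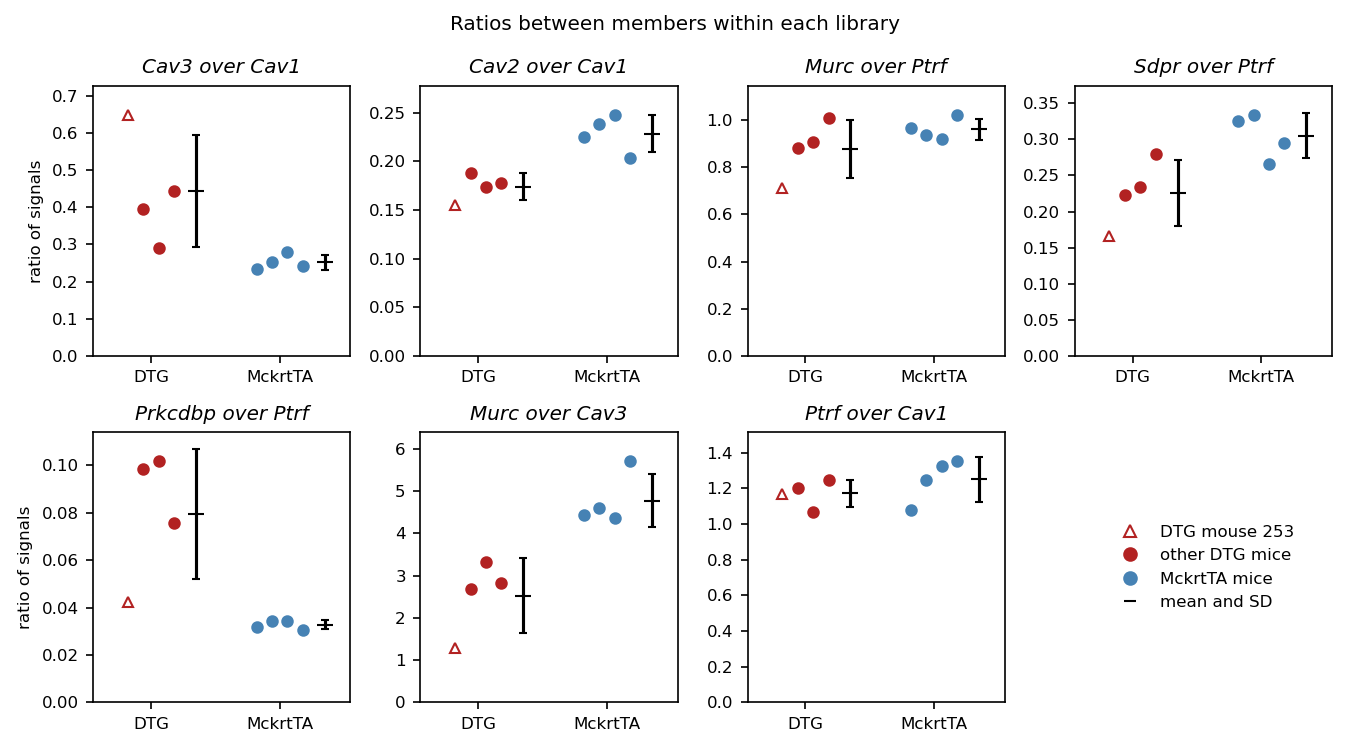
Ratio of the signals of 2 members (vertical axes, from 0) in each library, with black bars for the mean and SD of a group and an open triangle for DTG mouse 253. Cav3 over Cav1 and Prkcdbp over Ptrf are higher in every DTG library, Cav2 over Cav1 and Murc over Cav3 are lower, and the other 3 overlap.

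Endothelium, rich in caveolae, is a main source of Cav1. Of 12 endothelial markers 2 were called lower, Ptprb (log2 fold change -1.09) and the VEGF receptor gene Kdr (-1.05), none higher and none was at 0 in any library. That share is near the share of all genes called lower. Both calls were lost under the 3 other scalings and 1 without MckrtTA mouse 307, and with equal totals 7 of the 12 had every DTG value above every MckrtTA value. The share of all genes apart in this way with equal totals was not computed. Under that scaling the median of all tested genes was 0.67 and 31.1% were called higher. The list's median was -0.45 and its summed signal 31659 to 42241 in DTG and 50366 to 53569 in MckrtTA muscle. Relative to the mean log2 signal of these markers, Cav1 stood at 2.66, 2.35, 2.40 and 2.40 in DTG mice, against 2.44, 2.30, 2.44 and 2.19 in MckrtTA mice. The groups overlapped, with a difference of 0.11 (exact permutation p = 0.314). They also overlapped for Ptrf (0.02, exact permutation p = 0.886), Cav2 (-0.28, exact permutation p = 0.114) and Sdpr (-0.43, exact permutation p = 0.0571). Prkcdbp was higher against these markers in every DTG mouse, by 1.21. The part of vessel content in these values was not tested.

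Of 9 smooth muscle and pericyte markers, other cells with many caveolae, 4 were called lower (Rgs5, Lmod1, Kcnj8 and Myh11) and 1 higher (Cspg4). Among all tested genes 16.0% were called lower and 14.6% higher. With equal totals 1 was called lower, and when mouse 253 was also left out 0 were called lower and 3 higher. On the deposited scaling Cspg4 was not called without mouse 253 or without MckrtTA mouse 307. Their summed signal was 15197 to 29129 in DTG and 30702 to 36990 in MckrtTA muscle. Mouse 253 was lowest in this sum and highest of the DTG mice in Cav1 and Ptrf, but also highest of them in Cspg4 of the same list (3034). The part of these cells in the Cav1 and Ptrf values was not tested.

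Relative to fibre markers, which were themselves lower in DTG muscle, Cav3, Ptrf and Murc stood higher there. Of 11 such markers 6 were called lower and none higher, beside 16.0% and 14.6% of all genes, with a median of -1.82. Cav3 stood at -5.90, -6.36, -6.50 and -6.41 from their mean log2 signal in DTG mice, against -8.15, -8.21, -8.07 and -8.39 in MckrtTA mice. All DTG mice were higher, by 1.91, and by 1.78 without mouse 253. Ptrf (1.06) and Murc (0.92) were likewise higher in all DTG mice, though their own log2 fold changes were -0.49 and -0.63. Both lay below the median of all tested genes, -0.26, which was itself well above the median of these markers. The share of all genes that stand apart on this measure was not computed. The part of the cells that the other marker lists stand for was not tested.

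**Figure D4:**
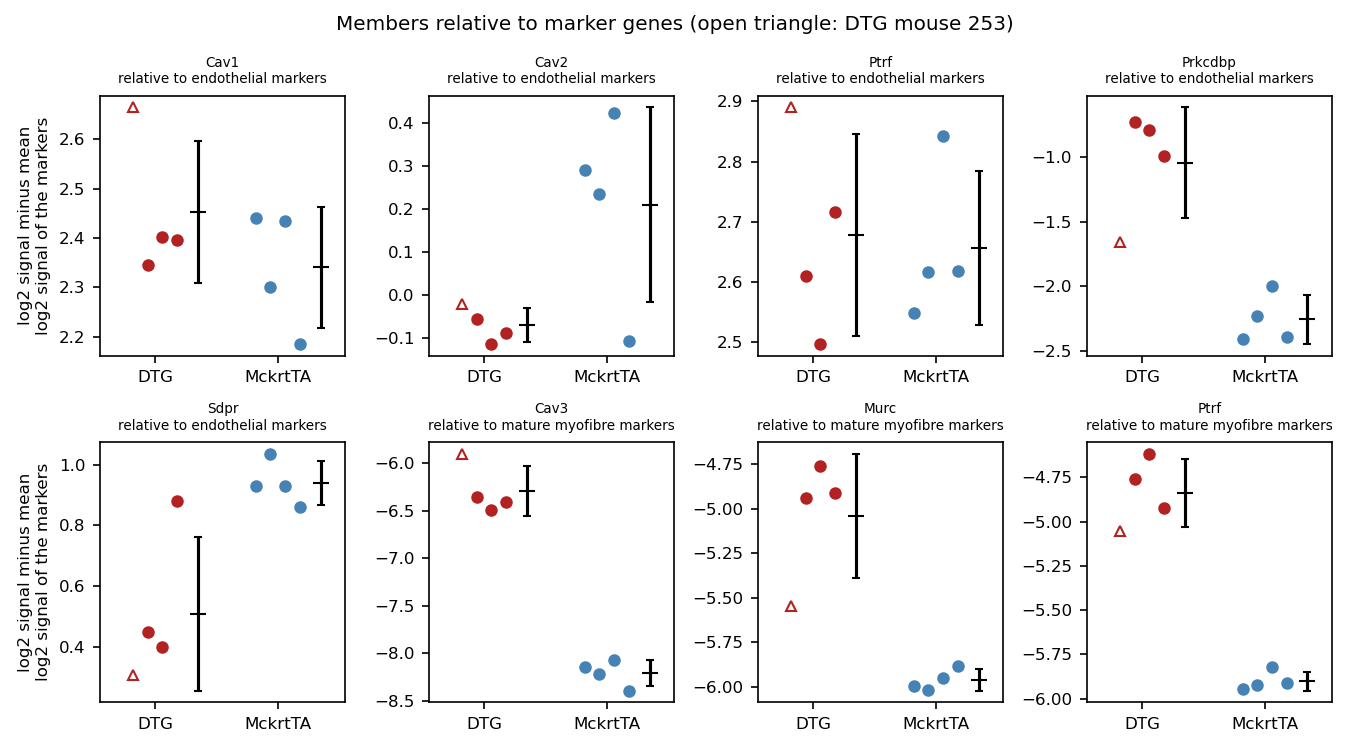
Log2 signal of a member minus the mean log2 signal of 12 endothelial or 11 mature myofibre markers (vertical axes, not from 0) in each library, with black bars for the mean and SD of a group. Cav1, Cav2, Ptrf and Sdpr overlap between the groups against endothelial markers, and Cav3, Murc and Ptrf are higher in every DTG library against fibre markers.

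Proteins that shape the caveolar neck or tie it to actin went both ways. Of 10 genes 3 were called higher and 1 lower, beside 14.6% and 16.0% of all genes. The list's median log2 fold change was 0.43, where all tested genes had -0.26. Ehd4, an ATPase of the EHD family, rose to 14250, 16280, 16534 and 12756 in DTG mice, against 4523, 3947, 4960 and 4050 in MckrtTA mice (log2 fold change 1.77, SE 0.12, adjusted p = 3.4e-06). Flna, the actin cross-linker filamin A, and Pacsin1, a membrane-curving syndapin of low signal, rose as well (1.24, adjusted p = 4.4e-05, and 1.88, adjusted p = 7.3e-04). Pacsin3, the syndapin of muscle, fell to 15613, 9668, 8770 and 10940 in DTG mice, against 23171, 23939, 26963 and 23015 in MckrtTA mice (log2 fold change -1.14, SE 0.17, adjusted p = 2.7e-04), a call that was lost under the 3 other scalings (-0.19 with equal totals, and -0.89 and -0.85 with the trimmed mean and the median of ratios, where only the 2-fold minimum was missed). Ehd2, which sits at the neck and is named after its values were seen, had -0.10 (95% interval -0.31 to 0.12) and turned positive under each of them (0.16 to 0.85). With equal totals 6 of the 10 were called higher and 0 lower, beside 31.1% and 1.97% of all genes.

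Flotillins and stomatins, scaffold proteins of other membrane domains, had 1 call, higher, among 5 tested genes of 6, near the 14.6% of all genes called higher. Their median of -0.07 turned to 0.88 with equal totals. Stom rose to 19633, 14642, 13107 and 11327 in DTG mice, against 5607, 5236, 4989 and 5424 in MckrtTA mice (log2 fold change 1.44, SE 0.15, adjusted p = 4.2e-05). Mouse 253 was the highest.

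Of 6 genes whose proteins are known to bind caveolin-3, 3 were called lower and none higher, with a median of -0.83. Among all tested genes 16.0% were called lower and 14.6% higher. Nos1, the neuronal nitric oxide synthase of the sarcolemma, fell to 1129, 317, 355 and 371 in DTG mice, against 4522, 4762, 4744 and 4409 in MckrtTA mice (log2 fold change -3.27, SE 0.35, adjusted p = 3.9e-05). Mouse 253 had more of it than the other DTG mice. Pfkm, the muscle phosphofructokinase (-1.91, adjusted p = 3.6e-04), and Bves, a Popeye protein of the sarcolemma (-1.15, adjusted p = 1.4e-04), fell too. The Bves call was lost under the 3 other scalings, at -0.20 with equal totals and, by the 2-fold minimum only, at -0.90 and -0.86, and the Pfkm call with equal totals (-0.96). The uncalled genes, named after their values were seen, were Dag1 for dystroglycan (-0.51, but 0.44 with equal totals) and the membrane repair genes Trim72 (0.59) and Dysf (0.17, but -0.014 without mouse 253). Trim72 and Dysf were the genes called higher with equal totals. With equal totals the median turned to 0.12, with 2 genes higher and 1 lower, beside 31.1% and 1.97% of all genes.

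Of 7 genes of the T-tubule and its junction with the sarcoplasmic reticulum, 5 were called lower and none higher, with a median of -1.76. Among all tested genes 16.0% were called lower and 14.6% higher. Jph1, which bridges these membranes, fell to 12573, 10940, 11052 and 12651 in DTG mice, against 53974, 47768, 60948 and 47131 in MckrtTA mice (log2 fold change -2.15, SE 0.11, adjusted p = 1.5e-06). The calcium channel genes Ryr1 (log2 fold change -1.98) and Cacna1s (-1.90), the junctophilin gene Jph2 (-1.76) and the kinase gene Speg (-1.61) were the other calls. With equal totals 2 of the 5 calls, Jph1 and Ryr1, held. Cacna1s (-0.95), Jph2 (-0.81) and Speg (-0.66) then missed only the 2-fold minimum, and the list's median was -0.81. The uncalled genes, again named after their values were seen, were the phosphoinositide phosphatase gene Mtm1, at -0.45 (0.49 with equal totals), and Bin1, which bends the tubule membrane, at -0.26 (0.69 with equal totals and 0.032 with the median of ratios). Both were less negative than Sdpr, Cav2 and Murc.

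**Figure D5:**
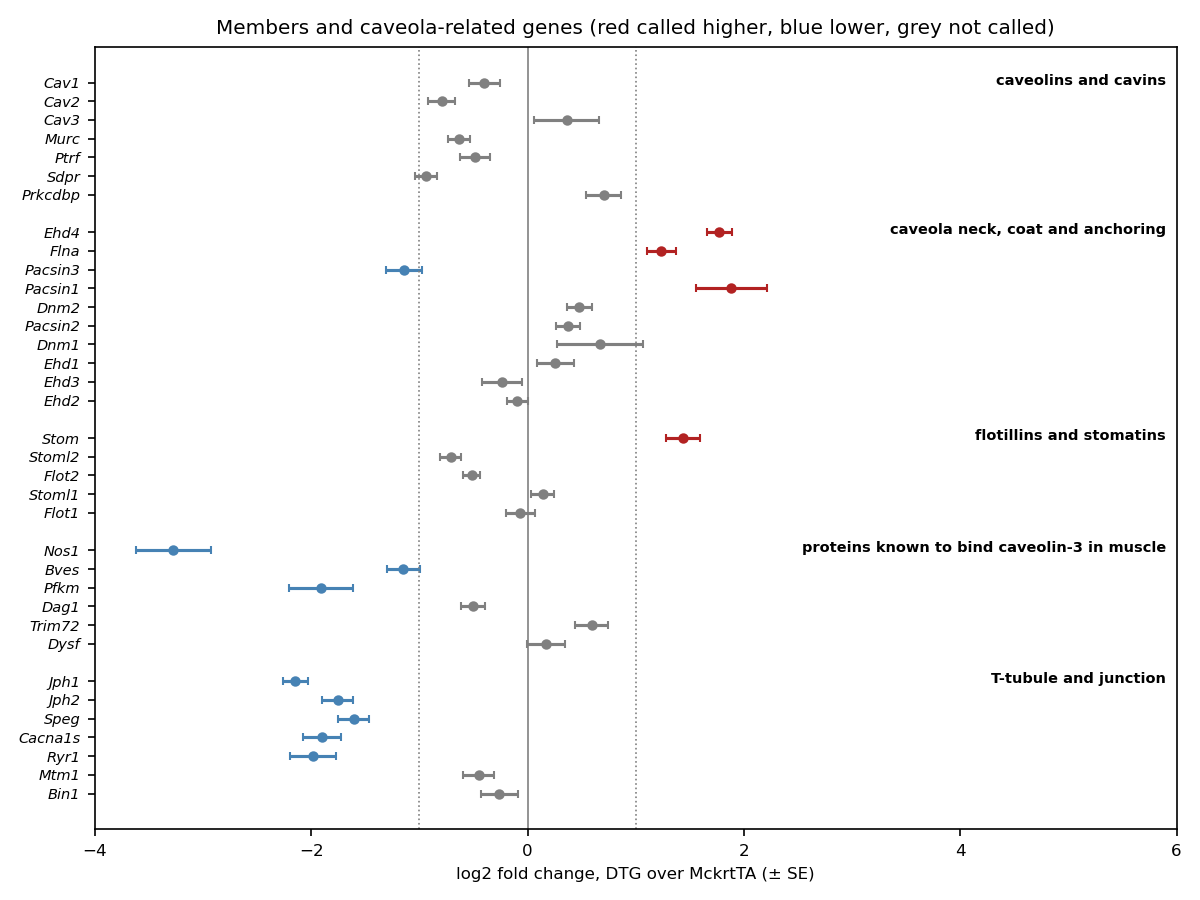
Log2 fold change, DTG over MckrtTA, with its standard error (horizontal axis) for the 7 members and the tested genes of the 4 related lists, with dotted lines at a 2-fold change. Members lie between -0.94 and 0.70 with none called, the T-tubule list reaches -2.15 and Nos1 -3.27.

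The members did not share 1 pattern over the 8 libraries. As a description, over libraries that share the group difference, the Pearson correlation of log2 signal was 0.956 for Sdpr and Murc, 0.922 for Ptrf and Cav1 and -0.91 for Prkcdbp and Murc, and no further from 0 than -0.346 for Cav3 with any member. Among 7926 other genes with a mean of 1000 or more, those most like Cav3 were Ip6k3 (0.977), Cdc42se2 (0.973) and Tmem43 (0.968). Ip6k3 had 10492, 2849, 2327 and 2952 in DTG mice, against 3415, 2701, 3197 and 2047 in MckrtTA mice, again with mouse 253 far above the rest. The nearest were Ppip5k1, Atf5 and Ccdc53 for Cav1 (0.986 for the first), Dmxl1, AK208460 and Efr3a for Cav2 (0.992), and Rxrb, Rnpepl1 and Fiz1 for Murc (0.993). They were Iws1, Zbed4 and Ebna1bp2 for Ptrf (0.995), BC031353, Cbx7 and Slc38a3 for Sdpr (0.997), and Ap2s1, Adamts2 and Rasa1 for Prkcdbp (0.995).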

How the data were processed

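Poly(A) RNA of 8 gastrocnemius samples, 1 a mouse, was sequenced on 2 lanes. The authors removed adaptors, mapped read pairs to mm10 transcripts with RSEM (the labels also name BWA) and deposited upper-quartile scaled signal values. The value of 1 read was taken as the commonest non-zero value of a library, which put depth at 45.6 to 58.6 M reads. Only 88.3% to 89.6% of small values then fell within 0.1 of a whole number, so no count test was run. Columns of libraries left unused numbered 0.

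In R 4.3.3, limma 3.58.1 was fitted to log2(signal + 10), with a variance trend and no covariate, for genes that reached a signal of 25 in at least 3 libraries, with Benjamini-Hochberg adjustment over all of them. Fold changes on this scale understate low genes. Ratios, with 10 added to each signal, and members minus markers were tested by exact permutation over libraries. Ratios printed are of the signals themselves. Levels per kilobase used GENCODE M21 transcript lengths, the longer of 2 for Cav1. The fit was tested on simulated data that took the spread of both groups from MckrtTA libraries and added no difference in scaling. That check does not cover a DTG mouse apart from the others or the unequal library totals. Named genes were the members, Akt1, called genes of each list (the 4 with the smallest adjusted p, and any against the majority, where over 5 were called) and the 3 genes most like each member, but marker genes are mostly given as counts. The members and lists were chosen with earlier results of these data known. Alternatives changed the amount added (1 or 50), the minimum signal (above 0, or 100), the scaling, the lane term, the lanes (at least 2 libraries at the minimum), the moderation, the thresholds and the mice. The trimmed mean and median of ratios were computed from their formulas on the signal. The authors' principal component sheets were not used, and 1 marker gene is not reported here and was left out of its list.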

Additional observations from a re-analysis of the deposited data

Results flagged for a closer look

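For the 7 members and the 15 ratios and comparisons with markers, each group of 4 libraries, 44 groups in all, was searched for a library far from the other 3, which chance alone gives in about 1 in 20 groups. It was met once. Ptrf in DTG mouse 253, at 19698, lay above the other DTG mice at 13208 to 13804, a gap of 0.908 of the group's range. Without that mouse the log2 fold change of Ptrf was -0.63 in place of -0.49.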

How the results depend on the processing

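As reported, 2207 genes were higher and 2405 lower, with 0 members and 4 genes of the related lists higher and 0 members and 9 list genes lower. Equal library totals gave 4740 and 300 genes, 2 members higher, and 10 and 3 list genes. Log2 fold changes that turned positive were Cav1 0.55, Cav2 0.15, Ptrf 0.46, Sdpr 0.0074, Murc 0.32, Ehd2 0.85, Bin1 0.69, Mtm1 0.49, Dag1 0.44, under a scaling that raises all DTG values by construction. The same scaling without mouse 253, chosen after seeing the data, gave 6115 and 325 genes, 2 members higher, 11 and 4 list genes, and Cav1 0.54, Cav2 0.20, Ptrf 0.45, Sdpr 0.14, Murc 0.41, Ehd2 0.94, Bin1 0.65, Mtm1 0.49, Dag1 0.60. A trimmed mean of log ratios left 1400 genes lower and a median of ratios 1280, with Ehd2 at 0.16 and 0.20, and Bin1 at 0.032 under the median of ratios. Dysf stood at -0.14 on lane 8 and ranged from -0.014 without mouse 253 to 0.24 without mouse 306. On lane 1 alone, with 4 libraries, 38 genes were higher and 1 lower, with 0 and 0 list genes. An adjusted p under 0.05 with no fold minimum gave 3858 and 6645 genes, 1 and 5 members and 7 list genes higher. At 0.005 with no fold minimum, chosen after seeing the data, 4971 genes were lower, 1 member was higher and 3 were lower. Leaving out each mouse gave 1837 to 2742 genes higher and 2093 to 2878 lower, 0 to 1 members lower (Sdpr, without DTG mouse 306) and 4 to 5 list genes higher, and 4 to 6 of 7 ratios and 4 to 6 of 8 comparisons with markers were apart. Ptrf relative to endothelial markers ranged from -0.049 without mouse 253 to 0.084, and was -0.014 without mouse 255 and -0.0019 on lane 1. Where no cause is given, the cause was not tested. No paired analysis was possible because the labels name each mouse by its own number, and replicate numbers given in accession order pair no mice. An exact test within 1 lane cannot go below p = 0.333.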
